A study of Mus musculus with 6 samples.

Results

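Microglia of the subventricular zone (SVZ) were compared between mice 1 day after photothrombotic ischemia of the cortex (PT D1) and uninjured mice. The cells compared were those that the authors' table places in the class Microglia, 302 of the 658 cells of the series. The uninjured condition gave 71 and 84 microglia in its 2 libraries, and PT D1 gave 71 and 76. Mice of both conditions were adults that carried Nestin-CreERT2:R26-yfp on a C57BL/6 N background and had received tamoxifen. The drug switches on a yellow fluorescent protein in the Nestin lineage, the neural stem/precursor cells (NSPCs), and not in microglia. The paper states both sexes for its mice as a whole, without the sex behind each library. PT mice had received the dye Rose Bengal and a light exposure of the cortex, so the SVZ of that hemisphere, which was the tissue dissected, lay away from the lesion. Microglia were sorted as CD11b+ CD45low cells, with Ly6C+ and Ly6G+ CD45high leukocytes gated out, and sequenced by mCEL-Seq2, which counts each captured mRNA molecule by its unique molecular identifier (UMI). How many mice stood behind a library, and which plate held it, is not given in the sources used here, and enzyme amounts for the dissociation are stated per group of mice. The p-values below therefore measure the spread between libraries, which may be technical, and a plate effect cannot be told apart from the condition.

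Microglia are the resident macrophages of the brain. In the healthy tissue they hold a homeostatic program of surface receptors that sense nucleotides, fractalkine and CSF1, kept up by TGF-beta signalling and by transcription factors such as Sall1 and Mef2c. On tissue injury they are known to lower this program and to switch on immediate early genes, cytokines and chemokines, stress proteins and receptors for uptake of debris. In the SVZ they lie next to the stem cells and migrating neuroblasts and take up neuroblasts that die.

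At PT D1 the RNA of receptors and identity genes of homeostatic microglia fell together, with Tmem119 4.18-fold, Cx3cr1 4.48-fold, P2ry12 5.32-fold and Gpr34 11.97-fold lower. Rises made up 8 of 15 genes tested of the glucocorticoid list, 4 of 17 of the IL-6 and STAT3 list, 6 of 17 immediate early genes and 6 of 24 of the metallothionein and redox list, with some genes in several lists. Among them were Il1r2, Mt1, Mt2, Ier3, Socs3, Klf9, Cdkn1a and Dusp1. The lists were chosen with earlier results of these data known. Of 17 cytokines and chemokines tested, 6 rose as well. Of the 4846 genes tested, 276 passed (edgeR quasi-likelihood F-test, adjusted p under 0.05), which is 5.7%, and these are the genes called below. In 2492 genes, 51.4%, the 2 libraries of a condition did not overlap with those of the other. Of the 276 genes, 132 were higher at PT D1 (2.72% of the genes tested) and 144 were lower (2.97%). Over all genes tested the median log2 fold change was 0.04, and 52.7% of them lay above 0. Without TMM scaling of the library sizes this median was -0.09, and the calls split into 89 higher and 175 lower genes.

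**Figure D1:**
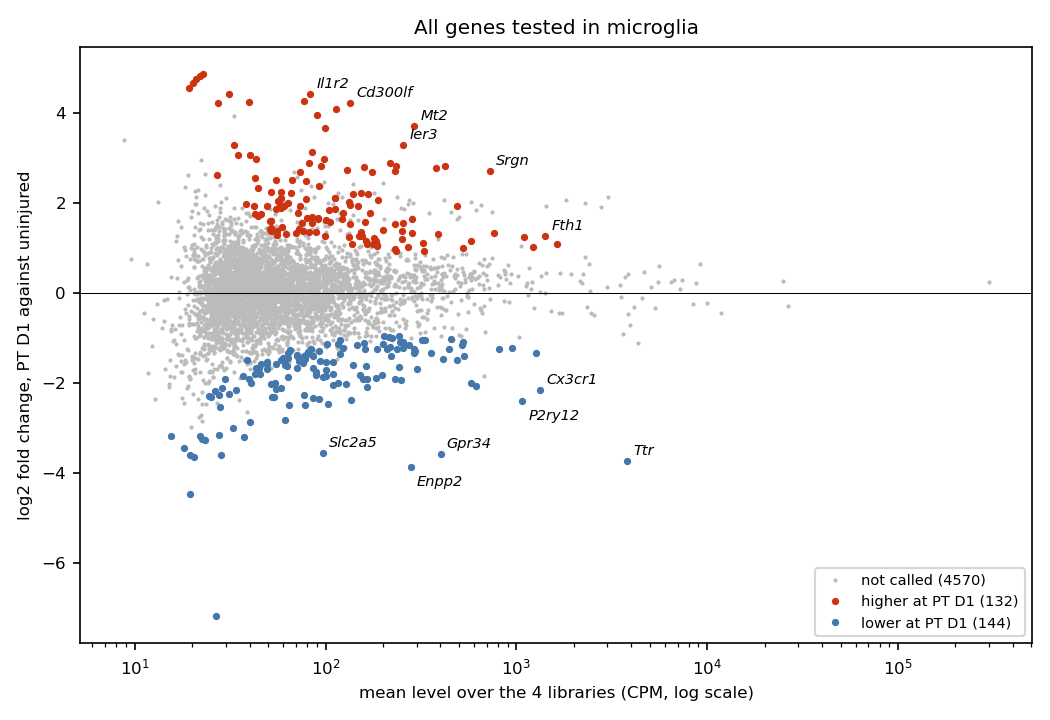
Log2 fold change of each of the 4846 genes tested in summed microglia, PT D1 against uninjured, against its mean level over the 4 libraries (CPM, log scale). Red points are the 132 genes called higher at PT D1 and blue points the 144 called lower, and 12 genes are named.

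Each condition rested on 2 libraries, so the calls depended on each of them. Without uninjured library 1, 45 genes were called and 44 of them were among the 276, and without uninjured library 2 the numbers were 54 and 52. Without PT D1 library 1, 538 genes were called, and without PT D1 library 2, 255. In these fits the remaining library of a condition is assumed to vary like the libraries of the other conditions. Where the text says that a call was made again without a library, it refers to these 4 fits. With so few libraries, a gene that was not called is not shown to be unchanged.

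The 4 libraries held between 359704 and 468186 UMIs in their microglia, with medians of 4727 to 5522.5 UMIs per cell and of 6.80% to 7.99% mitochondrial UMIs. The predicted gene Gm10800 held 100700 and 126660 of these UMIs in the uninjured libraries and 112680 and 125640 at PT D1. Without it in the counts, 278 genes were called and 269 of them were among the 276. The label of the cells was checked against 10 microglial markers, which had UMIs in the 4 libraries. Their summed level was 15960 and 16006 CPM in the uninjured libraries and 7723 and 5366 CPM at PT D1, since 7 of the 10 fell. Csf1r, the receptor that microglia need to survive, was at 3028, 2648, 2436 and 1739 CPM in the order uninjured libraries 1 and 2, PT D1 libraries 1 and 2, and was not called (log2 fold change -0.44 ± 0.27 SE, adjusted p = 0.36). That order of the libraries is used throughout. CPM are UMIs scaled to a common library size, which for single genes includes the TMM factors.

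Markers of other cells differed between the libraries too. Summed choroid plexus markers stood at 10769 and 4757 CPM in the uninjured libraries and at 631 and 505 CPM at PT D1, and 23 of 71 and 35 of 84 uninjured microglia held UMIs of at least 3 of them, against 2 of 71 and 1 of 76. Of the 4 choroid plexus markers that could be tested, 3 fell. Epithelial markers ran the other way in PT D1 library 2, with 65.9, 218, 117 and 1074 CPM, and border macrophage markers summed to 434, 545, 303 and 1340 CPM, with 0 of 4 and 0 of 3 tested markers called. Cbr2 alone gave 68, 135, 53 and 541 UMIs of the border macrophage sum, while Mrc1 gave 25, 23, 5 and 3 and Stab1 42, 68, 48 and 51. Monocyte markers were at 16.5, 29.9, 30.6 and 109 CPM, highest in PT D1 library 2 as well, with Ly6c2 at 0. Neutrophil markers lay between 55.5 and 65.9 CPM with Ly6g, Retnlg and Camp at 0. At least 3 neuroblast markers were held by 4 of 71, 37 of 84, 0 of 71 and 14 of 76 microglia. For astroglial markers the numbers were 10, 27, 4 and 16 cells. Without the cells that held at least 3 markers of any other cell type, 38, 20, 57 and 37 microglia were left, an uneven loss between the libraries. In this setting 276 genes were called among the 1947 that could be tested, and 177 of them were among the first 276.

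**Figure D2:**
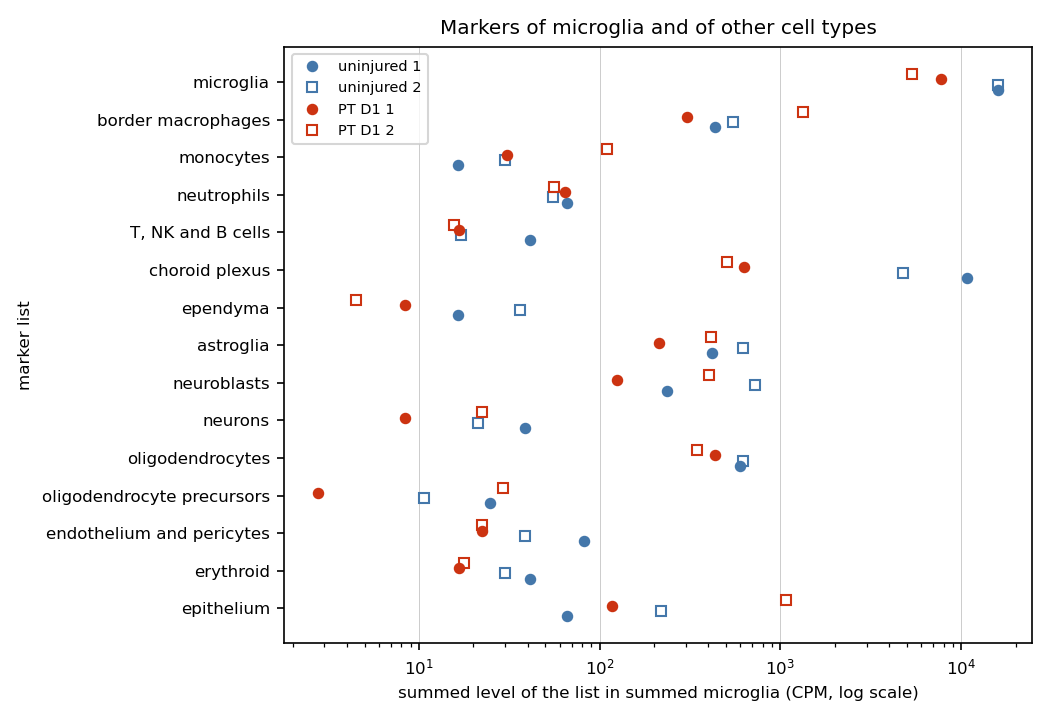
Summed level of each marker list in summed microglia (CPM without TMM scaling, log scale) in the 2 uninjured libraries (blue) and the 2 PT D1 libraries (red). Microglial and choroid plexus markers were lower in both PT D1 libraries, while the sums of epithelial and border macrophage markers were highest in PT D1 library 2, the latter through Cbr2.

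Homeostatic receptors and identity genes made up the group with the most falls. Of 30 members tested, 15 fell and 1 rose (53.3% called, against 5.7% over all genes tested), and 14 were not called. The median log2 fold change of the group was -1.19. Gpr34, a lysophosphatidylserine receptor on the X chromosome (GRCm39 X:13489625-13507116), was at 801 and 679 CPM in the uninjured libraries and at 51.6 and 70.4 CPM at PT D1. Its log2 fold change was -3.58 ± 0.29 SE (adjusted p = 0.000234), an 11.97-fold lower level. Both PT D1 libraries lay far below both uninjured ones. P2ry12, the ADP receptor that directs microglial processes to injury (3:59123682-59170429), was at 1773, 1826, 441 and 238 CPM (-2.41 ± 0.31 SE, adjusted p = 0.0015). These are levels of RNA. In the paper's immunolabeling, P2ry12 protein was low or absent in uninjured SVZ microglia and much higher in a fraction of them at PT D1. Cx3cr1, the receptor for the neuronal chemokine fractalkine (9:119877749-119898945), was at 2203, 2128, 562 and 406 CPM (-2.16 ± 0.27 SE, adjusted p = 0.0013).

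The other falls of this group covered adhesion and membrane proteins as well as receptors. Tmem119, a membrane protein used to mark microglia, fell from 969 and 1019 CPM to 264 and 211 CPM (log2 fold change -2.06 ± 0.29 SE, adjusted p = 0.00246). Olfml3, a secreted matrix protein, was at 915, 928, 264 and 199 CPM, and Bin1, which shapes curved membranes, at 275, 259, 72.9 and 53.4 CPM. Slc2a5, a fructose transporter, was at 184 and 174 CPM before and at 15.2 and 14.6 CPM after PT (-3.56 ± 0.37 SE, adjusted p = 0.000523). In each of these genes the level at PT D1 lay below the lower uninjured library. Of all genes tested, 51.4% had no overlap in 1 direction or the other. Crybb1, Siglech, Selplg, Aif1, Adgrg1, Ecscr, P2ry13 and Rgs10 fell as well, with log2 fold changes between -2.37 (Crybb1) and -1.24 (Adgrg1). Gpr84, a receptor for medium-chain fatty acids, was the member that rose, from 51.0 and 33.2 CPM to 158 and 204 CPM (2.12 ± 0.32 SE, adjusted p = 0.00378).

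Some well-known microglial genes did not pass the test. Cst3, a protease inhibitor, was at 14712, 12381, 11220 and 8690 CPM (adjusted p = 0.42). Fcrls, an Fc receptor-like protein, was at 629, 716, 392 and 306 CPM (adjusted p = 0.0517). Of the 16 calls in the group, 9 were made again without uninjured library 1, 8 without uninjured library 2, 16 without PT D1 library 1 and 14 without PT D1 library 2. Those made again in each of the 20 alternative settings that tested them included Gpr34, Slc2a5, P2ry12, Cx3cr1, Tmem119, Olfml3, Crybb1 and Bin1.

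**Figure D3:**
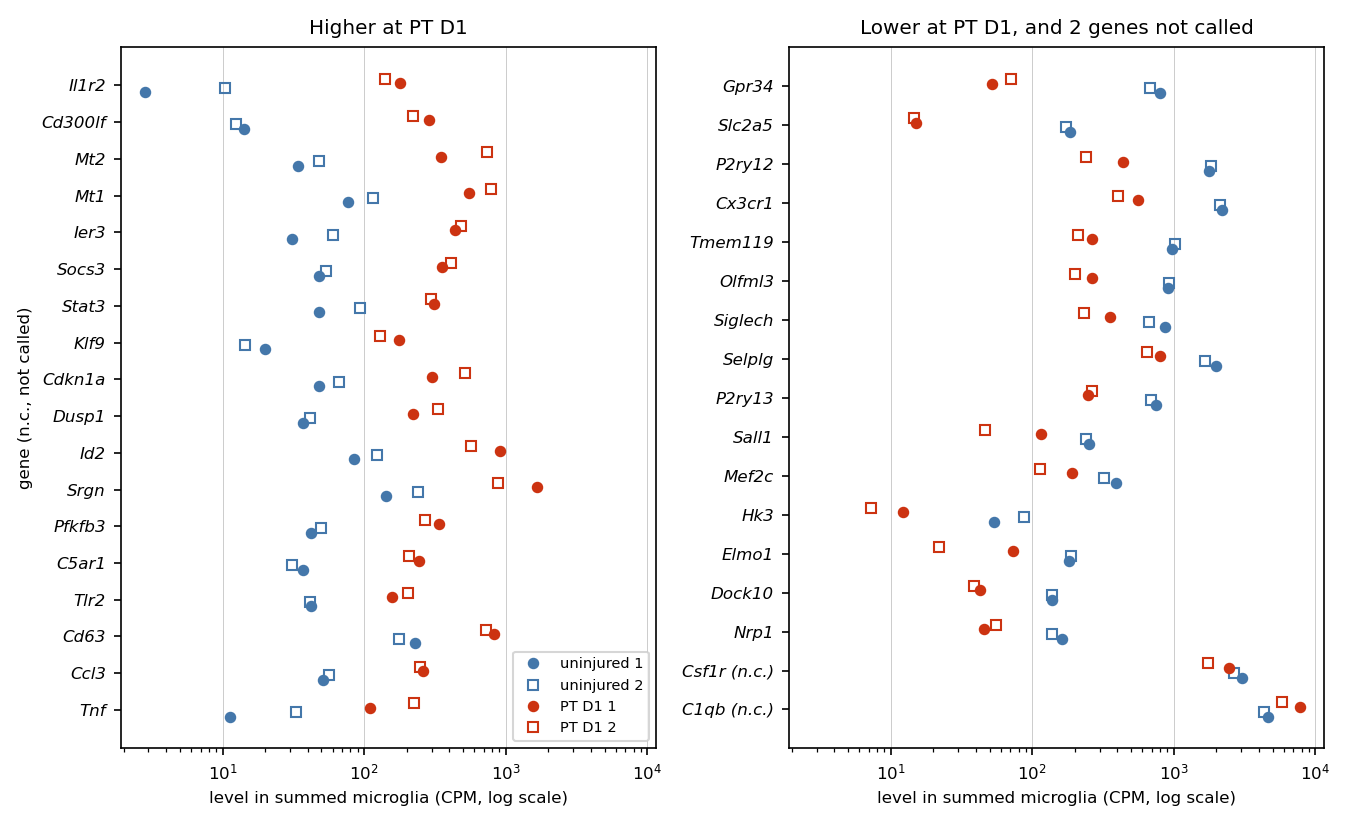
Level of 35 genes in each of the 4 libraries (CPM, log scale), with the uninjured libraries in blue and the PT D1 libraries in red. Genes on the left were higher at PT D1, and those on the right were lower, except for Csf1r and C1qb (n.c., not called).

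Transcription factors that set microglial identity were a further group. Of 19 tested, 3 fell and 16 were not called, with a median log2 fold change of -0.52 (15.8% called, 5.7% over all genes). Sall1, a repressor that keeps microglia distinct from other macrophages, was at 252, 239, 115 and 46.1 CPM (-1.62 ± 0.36 SE, adjusted p = 0.0259). Mef2c, a factor that restrains inflammatory responses, was at 394, 320, 191 and 114 CPM, and Fli1, an ETS factor, at 110, 139, 48.6 and 46.1 CPM. The next lower values were those of Maf, at 660, 598, 404 and 209 CPM (adjusted p = 0.0811), and Irf8 was not called either (adjusted p = 0.172). Without uninjured library 1 or uninjured library 2 none of the 3 was called (adjusted p between 0.111 and 0.304), and without PT D1 library 2 Mef2c was not (0.0819).

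Besides P2ry12 and P2ry13, regulators of G proteins fell in the group of nucleotide sensing. Among 20 purinergic receptors, channels and their signalling partners, 4 fell, P2ry12, P2ry13, Rgs2 and Rgs10, and 16 were not called, with a median of -0.15. Calls were 20.0% of this list, against 5.7% over all genes tested. P2ry13, a second ADP receptor encoded next to P2ry12, was at 753, 689, 249 and 262 CPM (log2 fold change -1.49 ± 0.25 SE, adjusted p = 0.00682). Rgs10, which shortens G protein signals, was at 481, 353, 216 and 129 CPM, and Rgs2, a related regulator, at 416, 446, 225 and 194 CPM. Entpd1, the ectonucleotidase that degrades extracellular ATP, was at 229, 286, 161 and 141 CPM and was not called (adjusted p = 0.108). P2ry12 was the call made again without uninjured library 1 and without uninjured library 2, while Rgs2 and Rgs10 were also lost without PT D1 library 2 (adjusted p = 0.0574 and 0.0631).

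Immediate early genes, which are transcribed within minutes of a stimulus without new protein synthesis, rose in part. Of 17 tested, 6 rose, 11 were not called and none fell, with a median of 0.94 (35.3% called, against 5.7% over all genes). Ier3, a stress-induced regulator of survival, rose from 31.2 and 60.2 CPM to 441 and 486 CPM (log2 fold change 3.30 ± 0.32 SE, adjusted p = 0.000484). Dusp1, the phosphatase that switches off p38 and JNK, rose from 36.8 and 41.5 CPM to 222 and 333 CPM (2.81 ± 0.33 SE, adjusted p = 0.00104). Both genes stood several-fold higher in each PT D1 library than in either uninjured library. Klf6, a zinc finger factor, was at 133, 147, 328 and 403 CPM, and Mcl1, an anti-apoptotic protein, at 190, 218, 419 and 471 CPM. Fosl2, a subunit of the AP-1 factor, and Ier2 rose too, but Fosl2 stood at 39.5 CPM in PT D1 library 1 and at 131 CPM in library 2. Ier2 was not called without the highest cell of each library (adjusted p = 0.0696). The classical members Egr1 (51.0, 110, 60.8 and 202 CPM) and Junb (272, 326, 404 and 473 CPM) were not called (adjusted p = 0.456 and 0.207). Ier3 and Dusp1 were called again without either uninjured library and the other 4 were not, whereas Fosl2 and Ier2 were lost without PT D1 library 2 (adjusted p = 0.531 and 0.149).

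In the group of the IL-6 family, STAT3 and C/EBP factors, Stat3 and the inhibitor Socs3 both rose. Of 17 genes tested, Stat3, Socs3, Cebpb and Il4ra rose (23.5% called, against 5.7% over all genes). The other 13 were not called, and the median was 0.48. Socs3, the protein that STAT3 induces and that blocks further cytokine receptor signalling (11:117856905-117860898), was at 48.1 and 54.0 CPM in uninjured microglia and at 352 and 413 CPM at PT D1 (log2 fold change 2.89 ± 0.27 SE, adjusted p = 0.000484). Stat3 itself was at 48.1, 93.4, 310 and 299 CPM (2.07 ± 0.32 SE, adjusted p = 0.00402). Both PT D1 libraries lay well above both uninjured libraries in these 2 genes. Il4ra, the receptor chain shared by IL-4 and IL-13, was at 42.5, 54.0, 307 and 151 CPM, and Cebpb, a factor of acute phase genes, at 122, 99.6, 276 and 304 CPM. The kinase Jak1 was at 201, 152, 358 and 267 CPM and was not called (adjusted p = 0.151). Socs3 was called again without either uninjured library, Stat3 without uninjured library 2, and all 4 without either PT D1 library.

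Of the gene lists, which were chosen with earlier results of these data known, that of glucocorticoid receptor targets had the largest share of rises. Of 15 tested, 8 rose, none fell and 7 were not called, with a median of 1.08 (53.3% called, against 5.7% over all genes). Whether the receptor had a part in these rises was not tested. Il1r2, the decoy receptor that binds IL-1 without signalling (1:40113239-40164391), was at 2.83 and 10.4 CPM, 1 and 5 UMIs, in the uninjured libraries and at 179 and 141 CPM at PT D1 (log2 fold change 4.42 ± 0.49 SE, adjusted p = 0.000653). Klf9, a zinc finger factor that the receptor induces directly, rose from 19.8 and 14.5 CPM to 176 and 129 CPM (3.14 ± 0.42 SE, adjusted p = 0.00157). Cdkn1a, the cell cycle inhibitor p21, was at 48.1, 66.4, 304 and 515 CPM (2.82 ± 0.35 SE, adjusted p = 0.0013). None of these genes overlapped between the conditions, which was so for 51.4% of all genes tested. Nfkbia, the inhibitor of NF-kB, was at 360, 355, 878 and 726 CPM, and Ddit4, an inhibitor of mTORC1, at 116, 112, 246 and 238 CPM. Fkbp5, a chaperone that is a common readout of the receptor, was at 142, 174, 264 and 253 CPM and was not called (log2 fold change 0.70 ± 0.26 SE, adjusted p = 0.14). Sgk1 had 112, 209, 102 and 157 UMIs, not scaled for library size, and Mertk had 137, 187, 108 and 110. Neither was called, and neither lay higher in both PT D1 libraries than in both uninjured ones. Of the 15 genes, 11 had a log2 fold change above 0. Dusp1, Mt1, Mt2, Il1r2, Nfkbia and Cdkn1a are members of this list as well as of others. Of the 8, 6 were called again without uninjured library 1 and 6 without uninjured library 2, in both cases without Ddit4 and Nfkbia, and all 8 without either PT D1 library.

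Metallothioneins, small cysteine-rich proteins that bind zinc and copper and take up oxidants, rose with parts of the redox and iron group. Mt1 and Mt2 lie side by side on chromosome 8 (GRCm39 8:94905710-94906955 and 8:94898819-94900207). Mt2 was at 34.0 and 47.7 CPM in the uninjured libraries and at 346 and 741 CPM at PT D1 (log2 fold change 3.71 ± 0.46 SE, adjusted p = 0.0013). Mt1 was at 76.5 and 116 CPM before and at 550 and 782 CPM after PT (2.77 ± 0.30 SE, adjusted p = 0.000653). Both genes were higher in PT D1 library 2 than in library 1. Of the 24 members of the group tested, 6 rose, none fell and 18 were not called, with a median of 0.48. The others that rose were Hmox1, the heme oxygenase (25.5, 16.6, 88.1 and 53.4 CPM), Txnrd1, the thioredoxin reductase (25.5, 10.4, 63.8 and 68.0 CPM), Fth1, the ferritin heavy chain (824, 843, 2060 and 1942 CPM), and Slc7a11, the cystine transporter, with 1 and 0 UMIs in the uninjured libraries and 14 and 13 at PT D1 (adjusted p = 0.046). Mt1 and Mt2 were called again without each of the 4 libraries, but Fth1, Hmox1, Txnrd1 and Slc7a11 were not called without uninjured library 1 or uninjured library 2. Hmox1 was lost without PT D1 library 1 (adjusted p = 0.146), Txnrd1 without PT D1 library 2 (0.0574) and Slc7a11 without either (0.176 and 0.173).

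The 250 bases before the start that RefSeq gives for Mt1, Mt2 and Socs3 are shown because these neighbouring or pathway-linked genes rose together. These starts need not be those of the GRCm39 positions above. They were taken from RefSeq promoters of build GRCm38.p6, read on the gene's strand from 5′ to 3′. Capitals mark matches to TGCNCNC, a loose form of the metal response core, in Mt1 (chr8:94178839-94179088, + strand) and Mt2 (chr8:94172368-94172617, + strand). In Socs3 (chr11:117969367-117969616, - strand) capitals mark matches to the STAT letters TTCNNNGAA.
Mt1: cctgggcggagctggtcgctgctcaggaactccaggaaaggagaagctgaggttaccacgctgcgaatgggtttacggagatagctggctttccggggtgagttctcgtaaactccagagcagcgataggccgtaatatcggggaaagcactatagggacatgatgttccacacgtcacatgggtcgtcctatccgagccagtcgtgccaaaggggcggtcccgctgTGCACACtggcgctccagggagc
Mt2: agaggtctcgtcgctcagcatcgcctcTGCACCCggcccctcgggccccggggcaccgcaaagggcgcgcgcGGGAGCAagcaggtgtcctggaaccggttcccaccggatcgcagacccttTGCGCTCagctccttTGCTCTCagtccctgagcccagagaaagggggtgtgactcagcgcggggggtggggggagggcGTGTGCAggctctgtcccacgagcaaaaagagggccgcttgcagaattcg
Socs3: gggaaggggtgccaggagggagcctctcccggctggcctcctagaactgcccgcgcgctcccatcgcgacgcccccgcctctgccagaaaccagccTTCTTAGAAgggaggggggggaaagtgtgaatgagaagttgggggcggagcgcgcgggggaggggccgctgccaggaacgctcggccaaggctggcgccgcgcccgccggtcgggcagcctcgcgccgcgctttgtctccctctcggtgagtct
Both strands were searched, so that GNGNGCA also counts as a match to TGCNCNC, and matches that overlapped were marked as 1 run of capitals. The Mt1 window held 1 match, the Mt2 window 5 and the Socs3 window 1. Another annotated start would give another window, so these counts hold for the windows shown only. The loose letters TGCNCNC were found in 44.4% of 32851 promoters and in 52.4% of those of tested genes. Among promoters of genes called higher and lower the shares were 45.2% and 59.6%. TTCNNNGAA was found in 7.02% of all promoters, in 5.63% of those of tested genes, and in 8.15% and 8.09% of those of genes called higher and lower. The AP-1 letters TGANTCA occurred in 6.75% of all promoters and 4.42% of those of tested genes. Among genes called higher and lower their shares were 7.41% and 4.41%. For the C/EBP letters TTGCNNAA the 4 shares in the same order were 9.56%, 7.99%, 11.9% and 9.56%. The inverted pair of glucocorticoid receptor sites was in 0.387% of all promoters and 0.193% of those of tested genes. It was in 1 of 135 promoters of genes called higher and 0 of 136 of those called lower. A match is a description of letters in this window and not a binding site.

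Of 16 genes of TNF and NF-kB signalling tested, Tnf, Map3k8, Nfkbia and Icam1 rose and 12 were not called, with a median of 1.144. Tnf, the cytokine that opens the cascade, was at 11.3, 33.2, 109 and 226 CPM (log2 fold change 2.83 ± 0.48 SE, adjusted p = 0.00676), and 35.5% of its UMIs in PT D1 library 2 came from a single cell. Map3k8, the kinase Tpl2 needed for TNF production, was at 2.83, 14.5, 88.1 and 68.0 CPM (2.99 ± 0.67 SE, adjusted p = 0.0258). Icam1, an endothelial and leukocyte adhesion molecule, was at 28.3, 49.8, 94.2 and 107 CPM, and without the highest cell of each library it was not called (adjusted p = 0.0868). Tnf was called again without uninjured library 2 (adjusted p = 0.0177) but not without uninjured library 1 (0.0865), and the other 3 were lost without each of these libraries. Icam1 was also lost without PT D1 library 2 (0.107).

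Of 17 cytokines and chemokines tested, 6 rose (35.3% called, against 5.7% over all genes), Ccl3, Ccl4, Ccl12, Cxcl2, Cxcl10 and Tnf. The other 11 were not called, and the median of the 17 was 1.06. Ccl3, a chemokine that attracts myeloid cells, rose from 51.0 and 56.0 CPM to 261 and 248 CPM (log2 fold change 2.24 ± 0.30 SE, adjusted p = 0.00157). Cxcl2, a neutrophil attractant, was at 17.0, 8.30, 264 and 165 CPM (4.10 ± 0.43 SE, adjusted p = 0.000523). In PT D1 library 1, however, 94.3% of the Cxcl2 UMIs (82 of 87) came from 1 cell. A Cxcl2 UMI was held by 8.45% of the microglia of that library, against 39.5% in PT D1 library 2. The uninjured libraries had 6 and 4 Cxcl2 UMIs. Without the highest cell of each library Cxcl2 could not be tested, so its call was not checked in this way. Ccl12, a ligand of CCR2, was at 53.8, 62.3, 407 and 141 CPM, with 79.9% of its UMIs in PT D1 library 1 in 1 cell, and was not called without the highest cell of each library (adjusted p = 0.123). Ccl4 was at 25.5, 22.8, 69.9 and 199 CPM and lost its call in the same way (0.0803). Cxcl10, an interferon-induced chemokine, had 0 and 1 UMIs in the uninjured libraries and 10 and 24 at PT D1 (adjusted p = 0.0266). Il1a, at 45.3, 27.0, 79.0 and 131 CPM, was not called (adjusted p = 0.0539). Cxcl2 was called again without uninjured library 1, Cxcl2, Ccl3 and Tnf without uninjured library 2, and Ccl4 was lost without PT D1 library 2 (adjusted p = 0.0728), where Cxcl10 could not be tested.

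Receptors for cytokines and chemokines went in both directions. Of 21 tested, 2 rose (Il1r2 and Csf2rb), 2 fell (Cx3cr1 among them) and 17 were not called, with a median of 0.04. In all, 19.0% were called, against 5.7% over all genes. Csf2rb, the signalling chain of the GM-CSF receptor, was at 31.2, 31.1, 100.2 and 75.3 CPM (log2 fold change 1.47 ± 0.33 SE, adjusted p = 0.0271). Tgfbr1, the TGF-beta receptor kinase, was at 903, 870, 574 and 396 CPM and was not called (adjusted p = 0.0758). Il1r2 and Cx3cr1 were called again without each of the 4 libraries. Csf2rb was lost without uninjured library 1 (adjusted p = 0.213), uninjured library 2 (0.227) and PT D1 library 1 (0.0836).

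Among 19 Toll-like receptors and innate sensors, Tlr2, Tlr7 and Cd14 rose, Tlr3 fell and 15 were not called, with a median of -0.33. This was 21.1% called, against 5.7% over all genes. Tlr2, which binds bacterial lipopeptides, was at 42.5, 41.5, 158 and 204 CPM (log2 fold change 2.10 ± 0.31 SE, adjusted p = 0.00315). Tlr7, the endosomal sensor of single-stranded RNA, was at 142, 133, 477 and 384 CPM (1.65 ± 0.26 SE, adjusted p = 0.00434), and Cd14, the co-receptor for lipopolysaccharide, at 227, 220.0, 498 and 612 CPM (1.31 ± 0.27 SE, adjusted p = 0.0181). The PT D1 libraries lay above the uninjured ones in these 3 genes, and 51.4% of all genes tested had no overlap in either direction. Tlr3, which senses double-stranded RNA, fell from 39.6 and 43.6 CPM to 12.2 and 4.86 CPM (-2.31 ± 0.55 SE, adjusted p = 0.032). Without uninjured library 1 or uninjured library 2 none of the 4 was called (adjusted p between 0.0614 and 0.244), and Tlr3 was also lost without PT D1 library 2 (0.159).

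Complement receptors rose, while the components that microglia make were not called. Of 10 genes tested, C5ar1 and C3ar1 rose and 8 were not called, with a median of 0.10 (20.0% called, against 5.7% over all genes). C5ar1, the receptor for the chemoattractant C5a, was at 36.8, 31.1, 246 and 206 CPM (log2 fold change 2.73 ± 0.31 SE, adjusted p = 0.000809), and C3ar1, the receptor for C3a, at 159, 162, 480.0 and 338 CPM (1.35 ± 0.26 SE, adjusted p = 0.0153). C1qb, a chain of the C1q complex that tags debris and synapses, was at 4588, 4317, 7771 and 5782 CPM and was not called (0.61 ± 0.26 SE, adjusted p = 0.209). C5ar1 was called again without each of the 4 libraries, and C3ar1 was lost without uninjured library 1 (adjusted p = 0.204) and without uninjured library 2 (0.183).

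Phagocytic and scavenger receptors were tested together with proteins that act in engulfment. Of 26 tested, 4 rose, 1 fell and 21 were not called, with a median of -0.29 (19.2% called, against 5.7% over all genes). Cd300lf, an inhibitory receptor for phosphatidylserine and ceramide (11:115007040-115024818), was at 14.2 and 12.5 CPM in the uninjured libraries and at 289 and 221 CPM at PT D1 (log2 fold change 4.23 ± 0.36 SE, adjusted p = 0.000234). Msr1, the class A scavenger receptor, was at 5.66, 8.30, 179 and 114 CPM (4.28 ± 0.64 SE, adjusted p = 0.00315), from 2 and 4 UMIs in the uninjured libraries. The Fc receptors Fcgr4 (22.7, 20.8, 216 and 134 CPM) and Fcgr3 (779, 826, 1865 and 1425 CPM) rose as well. Elmo1, which couples engulfment receptors to Rac, fell from 181 and 187 CPM to 72.9 and 21.9 CPM (-2.00 ± 0.42 SE, adjusted p = 0.0198). Sirpa, the receptor of the CD47 signal, was at 589, 565, 371 and 306 CPM and was not called (adjusted p = 0.0998), nor was the adaptor Fcer1g (0.397). Without uninjured library 1, Cd300lf and Fcgr4 were called again, without uninjured library 2 also Msr1, and Fcgr3 was lost without PT D1 library 1 (adjusted p = 0.0828).

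Of 26 genes of disease-associated microglia, the state described in neurodegeneration, 5 rose and 21 were not called, with a median of 0.59. The calls were 19.2% of the list, against 5.7% over all genes. Cd63, a tetraspanin of late endosomes, was at 229, 176, 829 and 721 CPM (log2 fold change 1.94 ± 0.26 SE, adjusted p = 0.00157). Lgals3, a galectin that marks damaged lysosomes, was at 17.0, 41.5, 63.8 and 194 CPM, and it lost its call without the highest cell of each library (adjusted p = 0.0629). The other rises were Ctsb, Ctsl and Fth1. Apoe, the lipoprotein that is high in this state, was at 1784, 1980.1, 3050.2 and 2812 CPM (0.64 ± 0.25 SE, adjusted p = 0.166), and the receptor Axl at 11.3, 16.6, 21.3 and 55.8 CPM (adjusted p = 0.133), and neither was called. Cd63 was called again without uninjured library 1 (adjusted p = 0.0339) and not without uninjured library 2 (0.0721), where none of the 5 was. Lgals3 was lost without PT D1 library 2 (0.293) and Ctsb without PT D1 library 1 (0.0828).

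Of 44 lysosomal genes tested, 6 rose, none fell and 38 were not called, with a median of 0.29. The share called was 13.6%, against 5.7% over all genes tested. The cysteine proteases Ctsl (399, 459, 1264 and 918 CPM, log2 fold change 1.34 ± 0.26 SE, adjusted p = 0.0153) and Ctsb (986, 1106, 2558 and 1904 CPM, 1.09 ± 0.26 SE, adjusted p = 0.0333) rose, as did the proton pump members Atp6ap2 and Atp6v1a. Ctsd, the aspartic protease, was at 1892, 2173, 2543 and 2219 CPM and was not called (0.23 ± 0.25 SE, adjusted p = 0.652). The calls of Ctsl, Ctsb, Atp6ap2 and Atp6v1a were lost without uninjured library 1 or uninjured library 2 (adjusted p between 0.152 and 0.363), Ctsb also without PT D1 library 1 (0.0828) and Atp6v1a without PT D1 library 2 (0.234).

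Interferon and antigen presentation genes were called at a share near that over all genes (5.7%). Of 24 interferon-response and MHC class I genes, 1 fell, Ifi27 (73.6, 76.8, 24.3 and 21.9 CPM, adjusted p = 0.0207), and 23 were not called, with a median of 0.28. B2m, the light chain of MHC class I, was at 1524, 1800, 3552 and 2268 CPM (log2 fold change 0.81 ± 0.28 SE, adjusted p = 0.126). None of 7 MHC class II genes and co-stimulators was called, although their median was 1.05. H2-Aa, an alpha chain of MHC class II, stood at 28.3, 68.5, 27.3 and 238 CPM, so that PT D1 library 1 lay at the level of the uninjured libraries and PT D1 library 2 above them, and without PT D1 library 2 its log2 fold change was -0.89. Cd86, a co-stimulator of T cells, was at 127, 74.7, 222 and 192 CPM (1.05 ± 0.30 SE, adjusted p = 0.0692). Ifi27 was lost without uninjured library 1 (adjusted p = 0.13), uninjured library 2 (0.148) and PT D1 library 2 (0.0574).

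Genes of protein synthesis had small differences that mostly shared a sign. None of 68 cytosolic ribosomal protein genes was called at PT D1, and 59 of them had a log2 fold change above 0, with a median of 0.37. Of 35 translation factors, 34 lay above 0, 4 were called higher and 31 were not called, with a median of 0.53. The share called was 11.4%, against 5.7% over all genes tested. Without TMM scaling these medians were 0.24 for the ribosomal proteins and 0.40 for the translation factors. Eif4ebp1, which holds back cap-dependent initiation, was at 22.7, 16.6, 122 and 104 CPM (2.52 ± 0.37 SE, adjusted p = 0.00281). The translation factors Eif4a1, Eif5a and Eif1a rose by 1.02, 1.20 and 1.77 on the log2 scale. Eif4ebp1 was called again without uninjured library 1 (adjusted p = 0.0305) and not without uninjured library 2 (0.0707). The other 3 were lost without either of these libraries, and Eif1a and Eif5a also without PT D1 library 2 (0.0574 and 0.0572).

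In energy metabolism single enzymes were called. None of 59 nuclear and 13 mitochondrial genes of the respiratory chain was called, and their medians were -0.02 and 0.14. Of 24 genes of glycolysis and the hypoxia response, Pfkfb3 and Ldha rose, Slc2a5, Hk3 and P4ha1 fell and 19 were not called, with a median of 0.25. These calls were 20.8% of the list, against 5.7% over all genes. Pfkfb3, which makes the activator of the glycolytic enzyme phosphofructokinase, was at 42.5, 49.8, 340.3 and 269.5 CPM (log2 fold change 2.70 ± 0.32 SE, adjusted p = 0.00104). Hk3, a hexokinase of myeloid cells, was at 53.8, 87.2, 12.2 and 7.28 CPM (-2.87 ± 0.50 SE, adjusted p = 0.008). Ldha, the lactate dehydrogenase A chain, rose from 79.3 and 78.9 CPM to 182 and 192 CPM, and P4ha1, a prolyl hydroxylase, fell from 142 and 135 CPM to 54.7 and 24.3 CPM. Gapdh was at 411, 403, 568 and 524 CPM and was not called (adjusted p = 0.33). Pfkfb3 and Slc2a5 were called again without each of the 4 libraries, Hk3 was lost without uninjured library 2 (adjusted p = 0.118), and Ldha and P4ha1 without either uninjured library. In cholesterol and lipid handling, 1 of 15 genes was called (6.67%), near the share over all genes tested (5.7%). It was Abhd12, a lysophosphatidylserine lipase, which fell from 371 and 384 CPM to 182 and 158 CPM (-1.15 ± 0.24 SE, adjusted p = 0.0202). Abhd12 was lost without uninjured library 1 or uninjured library 2, with log2 fold changes of -1.20 and -1.14.

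Genes of the actin cytoskeleton gave 5 falls and 1 rise among 50 tested, with a median of 0.08. The falls included the small GTPase regulators Dock10 (139, 137, 42.5 and 38.9 CPM, log2 fold change -1.76 ± 0.31 SE, adjusted p = 0.00822), Dock8 (144, 164, 66.8 and 29.1 CPM) and Arhgap5 (266, 145, 76.0 and 26.7 CPM). The motor Myo1f and the membrane-actin linker Marcks, at 1351, 1299, 696 and 437 CPM, fell too. Iqgap1, a scaffold of Rac and Cdc42, rose from 31.2 and 14.5 CPM to 79.0 and 102 CPM (2.04 ± 0.43 SE, adjusted p = 0.0189). Actb was at 4729.5, 4749, 4566 and 4189 CPM and was not called (adjusted p = 0.846). Without uninjured library 1 none of the 6 was called (adjusted p between 0.0556 and 0.224), without uninjured library 2 only Arhgap5 was (0.0417), and Dock8 and Marcks were also lost without PT D1 library 2 (0.0507 and 0.0634).

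Of 26 adhesion and matrix genes tested, 7 rose and 6 fell (50.0% called, against 5.7% over all genes). The other 13 were not called, and the median was -0.17. Srgn, the proteoglycan of secretory granules that stores chemokines and proteases, was at 142, 241, 1653 and 879 CPM (log2 fold change 2.71 ± 0.38 SE, adjusted p = 0.002). Plaur, the urokinase receptor, had 3 and 0 UMIs in the uninjured libraries and 25 and 31 at PT D1 (adjusted p = 0.00656), and Adam8, a sheddase, had 2 and 0 against 15 and 24 (adjusted p = 0.0214). Tgfbi, Mmp14, Icam1 and Lgals3 were the other rises, with log2 fold changes between 1.31 and 2.24. Mmp14 was not called without the highest cell of each library (adjusted p = 0.0964). The falls were the integrin chains Itga6 (173, 147, 72.9 and 72.8 CPM) and Itga9 (39.6, 56.0, 9.11 and 7.28 CPM), the semaphorin co-receptor Nrp1 (161, 137, 45.6 and 55.8 CPM), Sema4d, Selplg, and Jam2 with 18 and 24 UMIs before and 0 and 4 after PT (adjusted p = 0.0212). Of these 13 calls, 1 was made again without uninjured library 1 (Plaur, adjusted p = 0.0204), 1 without uninjured library 2 (Srgn, 0.0177), 12 without PT D1 library 1 and 6 without PT D1 library 2.

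Smaller groups added single genes. Calls made up 11.8% of the genes tested of the TGF-beta, BMP and Id list and 10.3% of the chaperone list. The share was 20.0% in the apoptosis list and in the growth factor list, against 5.7% over all genes tested. In the TGF-beta, BMP and Id list, Id2, an inhibitor of helix-loop-helix factors (12:25143798-25147282), rose from 85.0 and 122 CPM to 905 and 573 CPM (log2 fold change 2.82 ± 0.31 SE, adjusted p = 0.000653), Pmepa1, a brake on TGF-beta signalling that the pathway itself induces, fell from 666 and 546 CPM to 240.0 and 197 CPM (-1.47 ± 0.25 SE, adjusted p = 0.007), and 15 of 17 were not called. Cdkn1a was the 1 call among 21 cell cycle genes (4.76%), a share near that over all genes tested (5.7%). Bcl2l1, Mcl1 and Trp53inp1 rose among 15 apoptosis and survival genes. Among 29 chaperones and genes of the unfolded protein response, Atf4, a factor of the integrated stress response, rose (102, 139, 249 and 255 CPM), and the endoplasmic reticulum proteins Pdia6 (167, 156, 88.1 and 68.0 CPM) and Sdf2l1 (11 and 20 UMIs before, 1 and 1 after PT) fell, while Hspa5 was not called (adjusted p = 0.475). Of 15 growth factors and secreted ligands, Kitl (36.8, 49.8, 9.11 and 9.71 CPM), Igf2 (130, 158, 33.4 and 24.3 CPM) and Npnt (11 and 12 UMIs before, 2 and 0 after PT) fell.

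The calls of these smaller groups depended on single libraries to different degrees. Id2 and Cdkn1a were called again without each of the 4 libraries, and Pmepa1 was lost without uninjured library 1 (adjusted p = 0.132) and uninjured library 2 (0.0571). Bcl2l1, Mcl1, Trp53inp1, Atf4, Pdia6, Kitl, Igf2 and Npnt were lost without either uninjured library (adjusted p between 0.12 and 0.448), and Sdf2l1 without uninjured library 2 (0.1). Without PT D1 library 2, Bcl2l1 (0.146), Atf4 (0.0555), Pdia6 (0.159), Kitl (0.098) and Npnt (0.17) were lost, and without PT D1 library 1, Trp53inp1 (0.257) and Kitl (0.0524). Of the 116 genes named and called, in the lists and outside them, 24 were called again in each of the 20 alternative settings that tested them. The 116 kept their direction wherever they were tested. Not every setting tested every gene, since 45 could not be tested with thinned cells and 50 with at least 10 UMIs in every library.

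**Figure D4:**
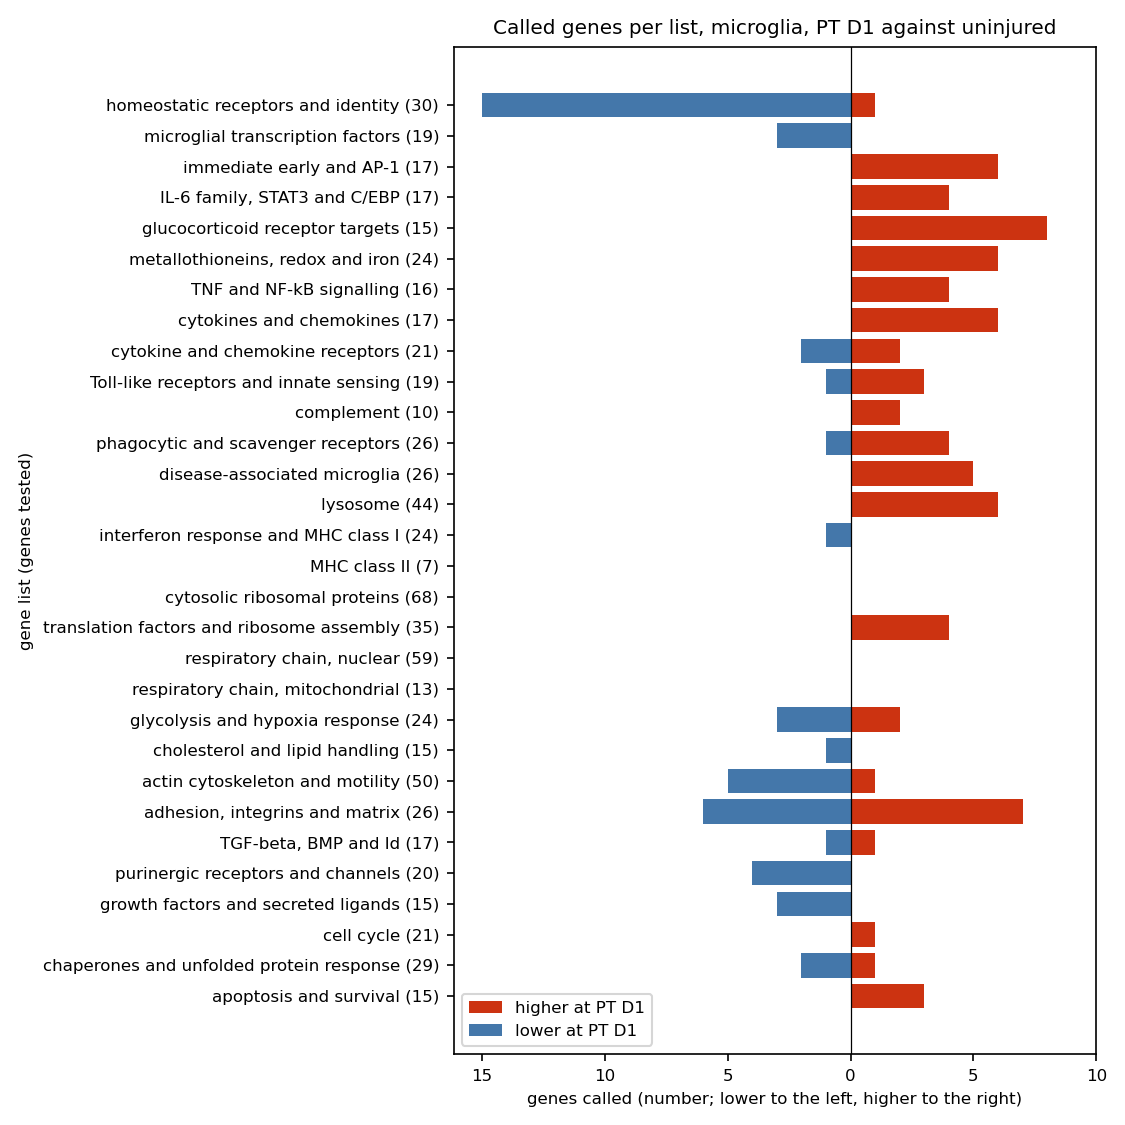
Number of genes called in each of 30 functional lists, lower at PT D1 to the left (blue) and higher to the right (red), with the number tested in brackets. The homeostatic list had 15 falls and 1 rise, and the glucocorticoid receptor list 8 rises and 0 falls. Over all genes tested, 5.7% were called.

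Outside the lists, several genes ranked with the largest changes among those at a mean of at least 50 CPM. Pik3ip1, an inhibitor of PI3 kinase, was at 2.83 and 16.6 CPM in the uninjured libraries and at 185 and 158 CPM at PT D1 (log2 fold change 3.97 ± 0.49 SE, adjusted p = 0.0013). Lilr4b, a leukocyte receptor whose reads can be split with a near-identical neighbour, was at 11.3, 16.6, 188 and 182 CPM (3.66 ± 0.37 SE, adjusted p = 0.000523). The 2 PT D1 libraries lay close together in both genes. Among the falls were Col27a1, a fibrillar collagen (173, 176, 30.4 and 31.6 CPM), Hpgd, the enzyme that inactivates prostaglandins (246, 209.6, 51.6 and 36.4 CPM), and Csmd3, a membrane protein with complement control domains (159, 108, 27.3 and 19.4 CPM). Ighm, the constant region of immunoglobulin M, fell from 96.3 and 118 CPM to 21.3 and 9.71 CPM (-2.82 ± 0.41 SE, adjusted p = 0.00288), beside 41.2, 17.1, 16.7 and 15.6 CPM of summed lymphocyte markers, of which Nkg7 and Ncr1 were at 0. Csmd3 was lost without uninjured library 1 (adjusted p = 0.0558), and the other 5 were called again without each of the 4 libraries.

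The largest falls also held choroid plexus genes. Ttr, the thyroid hormone carrier secreted by the choroid plexus, was at 10153, 4049.5, 605 and 461 CPM (log2 fold change -3.74 ± 0.55 SE, adjusted p = 0.00315). A single cell held 66.6%, 17.4%, 67.3% and 72.1% of its UMIs in the 4 libraries. At least 1 Ttr UMI was found in 98.6% and 100% of uninjured microglia and in 19.7% and 17.1% of those at PT D1, so the difference was not that of the highest cells alone, and without them the adjusted p was 0.000109. Enpp2, an enzyme that makes lysophosphatidic acid, was at 609, 438, 39.5 and 31.6 CPM, and Prlr, the prolactin receptor, at 105, 31.1, 6.08 and 7.28 CPM, lost without uninjured library 1 (adjusted p = 0.589). Igf2, named above among growth factors, had 58.7% of its UMIs in uninjured library 1 in 1 cell. Sparcl1, a matrix protein of astroglia and vessels, had 96.6% of its UMIs in uninjured library 1 in 1 cell and was not called without the highest cells (0.537) or without uninjured library 1 (0.404). Whether free RNA of choroid plexus cells in the uninjured libraries had a part in these falls was not tested.

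Some markers of other cells differed between the libraries of a condition. Cbr2, a carbonyl reductase listed among border macrophage markers, was at 193, 280.2, 161 and 1314 CPM (log2 fold change 1.64 ± 0.68 SE, adjusted p = 0.183), and without the authors' subcluster 3 its log2 fold change was -0.42. Mal2, a transport protein of polarized epithelia, was at 17.0, 41.5, 33.4 and 301 CPM (adjusted p = 0.0866). Mrc1, the mannose receptor of border macrophages, was at 70.8, 47.7, 15.2 and 7.28 CPM and was not called (adjusted p = 0.0737). Sox4, a factor listed among neuroblast markers, fell from 110 and 114 CPM to 27.3 and 55.8 CPM (-1.40 ± 0.36 SE, adjusted p = 0.0435), while summed neuroblast markers were at 236, 722, 125 and 404 CPM. Sox4 was lost without uninjured library 1 (adjusted p = 0.2), uninjured library 2 (0.215) and PT D1 library 1 (0.0965).

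The authors' subclusters 0 and 1 lay on opposite sides of the comparison, and subcluster 3 lay mainly in 1 library. Their subcluster 0, named homeostatic, held 76.1% and 83.3% of uninjured microglia, 0 of 71 cells in PT D1 library 1, which allows a share of up to 4.23%, and 1.32% in library 2. Subcluster 1, named activated, held 0 of 71 and 0 of 84 uninjured cells, which allows shares of up to 4.23% and 3.57%, and 90.1% and 52.6% at PT D1. Subcluster 3, named development-associated, held 0 of 71 cells in uninjured library 1, which allows up to 4.23%, 3 of 84 (3.57%) in uninjured library 2, and 1 cell of PT D1 library 1 and 35 of library 2, or 1.41% and 46.1%. Subcluster 2, named unknown, held 22.5%, 7.14%, 5.63% and 0%, and subcluster 4, named disease-associated, held 1.41%, 5.95%, 2.82% and 0%, where 0 of 76 cells allows up to 3.95%. These subclusters were drawn on the expression of the same cells, so the shares are a description with no test. Without subcluster 3, 405 genes were called and 259 of them were among the 276.

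Shares of cells with a UMI show whether a change lay in many cells or in few. After each cell was thinned to 1000 UMIs, Gpr34 was found in 60.6% and 42.9% of uninjured microglia and in 2.82% and 6.58% at PT D1, against 1.80% of the NSPCs of the series. Cx3cr1 was found in 87.3%, 83.3%, 40.8% and 25% of microglia and in 6.76% of NSPCs, so that most PT D1 cells of the thinned data gave no UMI of it. Csf1r, which was not called, was found in 88.7%, 86.9%, 85.9% and 75.0%, lowest in PT D1 library 2. On the side of the rises, Srgn went from 7.04% and 21.4% to 67.6% and 55.3% (NSPCs 7.66%), Ier3 from 2.82% and 5.95% to 23.9% and 39.5% (NSPCs 1.80%), and Socs3 from 5.63% and 4.76% to 25.4% and 27.6% (NSPCs 4.05%). Mt2 was found in 4.23%, 7.14%, 26.8% and 46.1% of microglia and in 38.7% of NSPCs, which express it themselves and so give no background for it. Cxcl2 was found in 4.23% and 17.1% at PT D1. Ccl12 was found in 7.04% and 5.26% at PT D1, not above the uninjured libraries (7.04% and 10.7%). In unthinned cells the PT D1 libraries lay on the same side of the uninjured ones for Gpr34 (91.5%, 88.1%, 18.3% and 27.6%), Socs3 (18.3%, 25%, 71.8% and 72.4%) and Srgn (46.5%, 72.6%, 95.8% and 88.2%). Unthinned, Cx3cr1 was found in 97.2%, 96.4%, 74.6% and 68.4% of microglia, so most PT D1 cells still held a UMI of it.

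**Figure D5:**
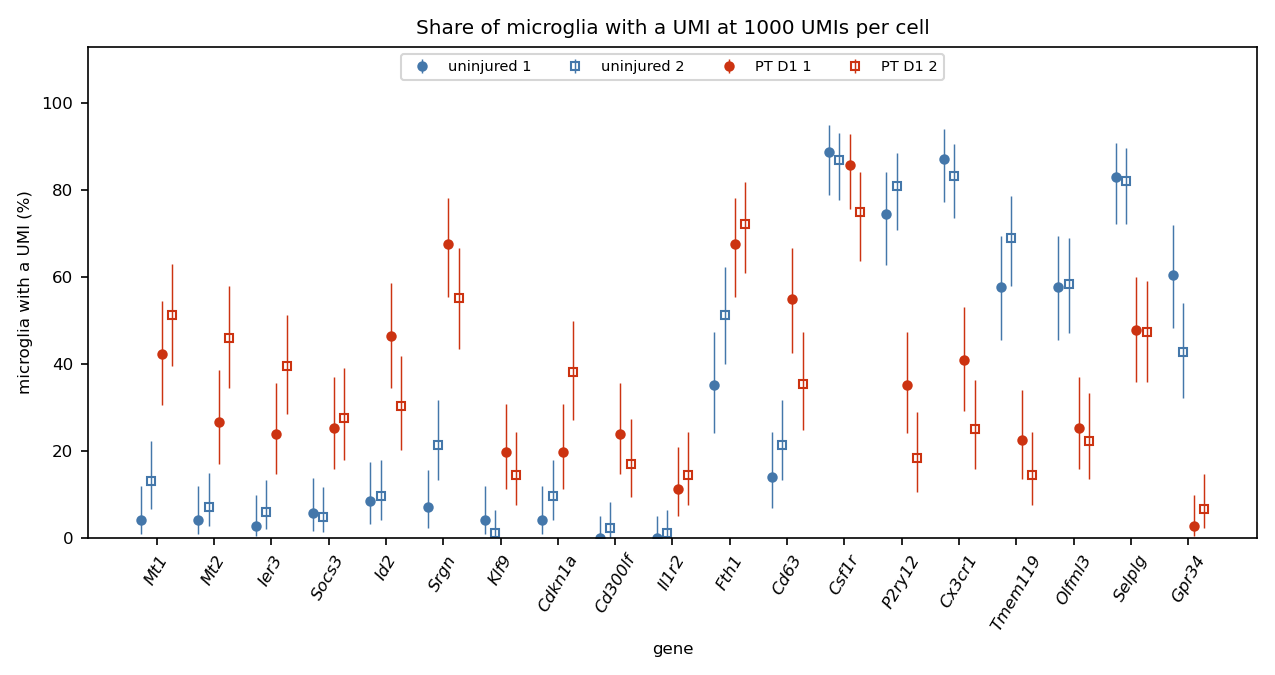
Share of microglia with at least 1 UMI of a gene after thinning each cell to 1000 UMIs, in the 2 uninjured (blue) and 2 PT D1 (red) libraries, with exact 95% Clopper-Pearson intervals that cover counting error only. Gpr34 fell from 60.6% and 42.9% to 2.82% and 6.58%, and Srgn went from 7.04% and 21.4% to 67.6% and 55.3%.

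The NSPCs sorted from the same tissue, 146 cells in these 4 libraries, allow the change of each gene in microglia to be set against that in a second cell type. The difference of the changes was tested with the library kept as a block, and 18 of 7514 genes passed, which is 0.24%. Klf9 rose in microglia and was at 163, 167, 201 and 256 CPM in NSPCs, a log2 difference of 2.56 ± 0.55 SE (adjusted p = 0.00654). Pik3ip1 differed in the same direction (2.97 ± 0.73 SE, adjusted p = 0.0278). The early genes Egr1 and Junb differed the other way, by -2.34 ± 0.51 SE and -2.52 ± 0.58 SE, since they rose in NSPCs by 2.73 and 2.87 on the log2 scale and were not called in microglia. Mt1, Mt2, Socs3 and Cdkn1a were called higher in NSPCs too, where the 4 libraries held only 16, 59, 19 and 52 cells. In NSPCs Mt1 rose by 2.25 (adjusted p = 6.2e-05), Mt2 by 2.91 (1.0e-07), Socs3 by 2.54 (0.0142) and Cdkn1a by 2.18 (0.000969) on the log2 scale. The differences between the cell types did not pass the test, which does not show that the changes were alike, and were 0.45 ± 0.44 SE for Mt1, 0.60 ± 0.48 SE for Mt2, 0.31 ± 0.73 SE for Socs3 and 0.54 ± 0.51 SE for Cdkn1a (adjusted p between 0.911 and 0.984). The 18 calls fell to 3 without uninjured library 1, 4 without uninjured library 2, 14 without PT D1 library 1 and 6 without PT D1 library 2, and to 0 without the block, where 453 genes had an unadjusted p under 0.05 against 514 with it. DESeq2 was not run on this comparison.

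For orientation, levels in the microglia of the 2 libraries taken 7 days after PT (PT D7) are given beside those at PT D1, with no test. Gpr34 stood at 727 and 649 CPM at PT D7 and P2ry12 at 1362 and 1157 CPM, against 801 and 679 CPM and 1773 and 1826 CPM in uninjured microglia. Cd300lf was at 12.5 and 14.8 CPM, Socs3 at 45.9 and 48.2 CPM, Ier3 at 50.1 and 55.6 CPM and Id2 at 125 and 119 CPM, all within or near the range of the uninjured libraries. Ccl3 and Ccl4 stood at 455 and 304 CPM and at 505 and 289 CPM, above both PT D1 libraries.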

How the data were processed

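Raw UMI counts per gene and cell (34203 genes, 658 cells from 1152 wells) and cell classes were used as deposited by the authors, who had demultiplexed with bcl2fastq 2.17.1.14 and used build GRCm39 per the labels' processing notes, and had removed shallow cells, cells with many mitochondrial UMIs and outliers that may be doublets. The percent of mitochondrial UMIs per cell was used as deposited by the authors. The sources used here give no aligner, annotation or use of strand, so a gene and its antisense partner cannot be told apart. No doublet caller was run. Cell barcodes are well numbers, of which pairs of the 4 libraries shared 54 to 66, with 0 identical profiles. The 92 spike-in rows held 0 UMIs. A further 14 columns of the cell table were not used.

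Counts of microglia were summed per library and fitted with edgeR 4.0.16 in R 4.3.3 (TMM factors 0.869 to 1.12, filterByExpr, quasi-likelihood F-test, uninjured, PT D1 and PT D7 in 1 model, Benjamini-Hochberg adjustment over the 4846 genes tested). Calls required an adjusted p under 0.05, and standard errors are the absolute log2 fold change divided by the root of F. The biological coefficient of variation was 0.233. The code was tested on simulated data. Genes named are the 10 largest rises and falls among called genes with a mean of at least 50 CPM and no overlap between conditions, up to 5 called members per direction and list by lowest p, up to 3 members not called by highest level, genes the study names for microglial subclusters, cell type markers, and genes whose change differed between microglia and NSPCs. Some genes (Abhd12, Adrb1 and Scoc among them) were chosen after their values were seen. Microglia, gene lists and tests were chosen with earlier results of these data known. For shares, each cell was thinned to 1000 UMIs, with Clopper-Pearson intervals of 95%. A count of 0 was read as allowing up to 3 counts. Alternatives were DESeq2 1.42.0, no TMM scaling, other filters on genes and cells, the library number as a block, and leaving out each library. Leaving out Gm10800 or the highest cell of each gene was added after seeing the data. Some genes that the rule names are not reported here.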

Additional observations from a re-analysis of the deposited data

Results flagged for a closer look

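In 18 genes the change from uninjured to PT D1 differed between microglia and NSPCs of the same 4 libraries (edgeR, adjusted p under 0.05). The values are log2 differences, microglia minus NSPCs, with their SE.

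The change was higher in microglia in 6 genes, Ehd1 (4.17 ± 0.95), Pik3ip1 (2.97 ± 0.73), Gramd1a (2.67 ± 0.63), Klf9 (2.56 ± 0.55), Iqgap1 (2.47 ± 0.61) and Ttr (2.44 ± 0.54). Ehd1, an endosomal recycling protein, had 0 CPM and 10.4 CPM in uninjured microglia and 63.8 and 58.3 CPM at PT D1. Ttr fell in both cell types, by 6.32 on the log2 scale in NSPCs.

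It was lower in microglia in 12 genes. Among them Egr1 (-2.34 ± 0.51), Junb (-2.52 ± 0.58), Dusp6 (-3.18 ± 0.72) and Klf3 (-2.24 ± 0.54) encode early response and zinc finger factors or a phosphatase of ERK. Egr1 was at 57.5, 62.9, 380.0 and 437 CPM in NSPCs, and Junb had 0 and 31.4 CPM before and 142 and 205 CPM after PT.

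Thrsp (-3.82 ± 0.73), Sparcl1 (-2.99 ± 0.57), Adgrg1 (-2.15 ± 0.47), Scoc (-2.47 ± 0.54), Jam2 (-3.77 ± 0.83), Adrb1 (-3.95 ± 1.00), Tjp1 (-2.40 ± 0.61) and Snn (-2.35 ± 0.60) made up the rest. Adrb1, a receptor for noradrenaline, fell in microglia from 136 and 166 CPM to 57.7 and 26.7 CPM. Of Sparcl1, 96.6% of the microglial UMIs in uninjured library 1 lay in 1 cell.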

How the results depend on the processing

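The 276 calls became 541 without a filter on low counts, 56 with cells thinned to 1000 UMIs (912 genes tested) and 101 with DESeq2, and leave-one-out fits ranged from 45 to 538. With the library number as a block, 453 genes were called, the 276 among them. Libraries with the same number deviated with a correlation of 0.22 over 4846 genes, but with 2 pairs this does not show that numbers pair the samples. Differences from NSPCs went from 18 to 0 without the block and ranged from 3 to 14 in leave-one-out fits. Of the 116 named calls, 81 were lost without uninjured library 1, 78 without uninjured library 2, 9 without PT D1 library 1 and 29 without PT D1 library 2. DESeq2 lost 53 of the 116, and a fit of only the 4 libraries of uninjured and PT D1 lost 28. With cells thinned to 1000 UMIs, 37 were lost and 45 could not be tested. H2-Aa reached 2.21 without uninjured library 2 and Cbr2 2.43 without PT D1 library 1. Uncalled genes that changed sign included H2-Aa (-0.89), Cbr2 (-0.59), Egr1 (-0.47) and Klf3 (-0.49), each without PT D1 library 2. Cbr2 also did so without cells with other markers (-0.27) and without subcluster 3 (-0.42), and Axl without cells with other markers (-0.11).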
